A study of Mus musculus with 29 samples.

Results

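The genes described here are 50 genes of mitosis and chromosome segregation, followed in 3T3-L1 cells through 7 days of adipocyte differentiation after C70 or vehicle. They were given as a list of gene symbols, matched to the Ensembl identifiers of the count table, and all 50 were among its 11959 genes. At day 2, 47 of the 50 were lower after C70, against 13.6% of all genes tested, and none was higher, against 16.9%. The kinase Ttk fell by 53.7%, further than any other of the 50, and the cyclin Ccnb2 fell by 51.9%. Cdc25b, Cks1b and Nusap1 were the 3 that did not pass the test. At day 0, when the treatment ended, 1 of the 50 was lower, against 3.09% of all genes. At day 7 the vehicle and C70 levels were both far below those of day 2.

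C70 (KDM5-C70) is an inhibitor of the KDM5 family of histone H3 lysine 4 demethylases. 3T3-L1 is a mouse preadipocyte line, 1 line that stands for all samples, and it was kept in preadipocyte medium until day 0, in differentiation medium to day 2 and in adipocyte medium afterwards. Confluent cells received 10 µM C70 or DMSO (vehicle) at day -2, and RNA was collected at days 0, 1, 2 and 7, so that every cell after day 0 was in medium without a further dose. Each of the first 3 time points had 3 vehicle and 4 C70 libraries, and day 7 had 4 of either kind, which makes 29 libraries in 8 groups. No genetic change separated the groups. Nothing in the labels says that replicates were separate cultures, so P values measure the spread between these samples, which may be technical.

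Entry into mitosis is driven by CDK1 bound to A- and B-type cyclins, and the Polo and Aurora kinases then build the spindle. Condensin and topoisomerase II compact and untangle the chromosomes, kinetochores attach them to microtubules, kinesins move and order the microtubules, and the anaphase-promoting complex releases sister chromatids by way of separase. Confluent 3T3-L1 cells are growth arrested, and on addition of differentiation medium they re-enter the cycle in a phase known as mitotic clonal expansion before they mature into adipocytes. In bulk RNA, fewer cells in mitosis and less RNA per cell cannot be told apart.

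Many genes of this kind carry CCAAT boxes, bound by NF-Y, and a cell cycle genes homology region (CHR), bound by the MuvB complexes, near the transcription start. Promoter sequences from RefSeq (build GRCm38.p6, 250 bases before to 50 after the start) were held for 42 of the 50 genes, and not for Ccna2, Aurkb, Tpx2, Incenp, Foxm1, Kif20a, Smc4 and Cdc25c. The letters CCAAT were found on either strand in 30 of the 42 (71.4%), against 43.6% of the 9007 genes of the count table with a promoter. A CHR, searched as TTTGAA or TTCGAA on either strand, was found in 31 of the 42 (73.8%), against 16.1% of the 9007. Both together were found in 27 of the 42 (64.3%), against 8.12%. An E2F core, searched as TTCCCGC or TTGGCGC on either strand, was found in 8 of the 42 (19.05%), against 14.7%. TTCGAA reads the same on both strands, and TTGGCGC overlaps a reversed CCAAT where ATTGG is followed by CGC. These are matches of letters and not measured binding.

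Stretches of 6 promoters are shown to set genes of unlike response to C70 side by side: Ttk and Ccnb2, which fell the most, Cdc20 and Top2a, which fell less, and Cks1b and Cdc25b, 2 of the 3 that did not pass the test at day 2. They were picked after the values were known. Each runs 5′ to 3′ on the strand of the gene, from 120 bases before the start to the first 16 transcribed bases, with CCAAT and CHR matches of either strand in capitals, so that ATTGG stands for a CCAAT, and TTCAAA for a TTTGAA, of the opposite strand.
Ttk: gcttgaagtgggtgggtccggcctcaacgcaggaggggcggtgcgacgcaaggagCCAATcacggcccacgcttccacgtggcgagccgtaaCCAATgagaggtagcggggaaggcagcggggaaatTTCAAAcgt
Ccnb2: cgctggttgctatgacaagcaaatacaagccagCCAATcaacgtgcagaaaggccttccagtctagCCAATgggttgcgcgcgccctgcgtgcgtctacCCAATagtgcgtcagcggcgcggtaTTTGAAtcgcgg
Cdc20: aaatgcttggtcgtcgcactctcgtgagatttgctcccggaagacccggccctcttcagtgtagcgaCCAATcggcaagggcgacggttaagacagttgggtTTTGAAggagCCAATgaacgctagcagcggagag
Top2a: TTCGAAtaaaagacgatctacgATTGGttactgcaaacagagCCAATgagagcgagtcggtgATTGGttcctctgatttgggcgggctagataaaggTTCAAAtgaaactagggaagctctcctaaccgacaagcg
Cks1b: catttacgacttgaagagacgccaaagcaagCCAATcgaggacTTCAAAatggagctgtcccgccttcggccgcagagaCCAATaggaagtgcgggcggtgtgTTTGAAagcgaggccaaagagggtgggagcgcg
Cdc25b: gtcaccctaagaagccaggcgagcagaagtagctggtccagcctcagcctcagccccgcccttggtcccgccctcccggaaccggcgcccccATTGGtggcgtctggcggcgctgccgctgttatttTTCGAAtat
On GRCm38.p6 they lie at chr9:83834569-83834704 on the plus strand (Ttk), chr9:70421539-70421674 on the minus strand (Ccnb2), chr4:118437328-118437463 on the minus strand (Cdc20), chr11:99024174-99024309 on the minus strand (Top2a), chr3:89418276-89418411 on the minus strand (Cks1b) and chr2:131186828-131186963 on the plus strand (Cdc25b). All 6 stretches hold both kinds of match. Nusap1, the other gene that did not pass at day 2, and Nuf2, which fell by 1.04 on the log2 scale, held neither in their promoters.

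**Figure D1:**
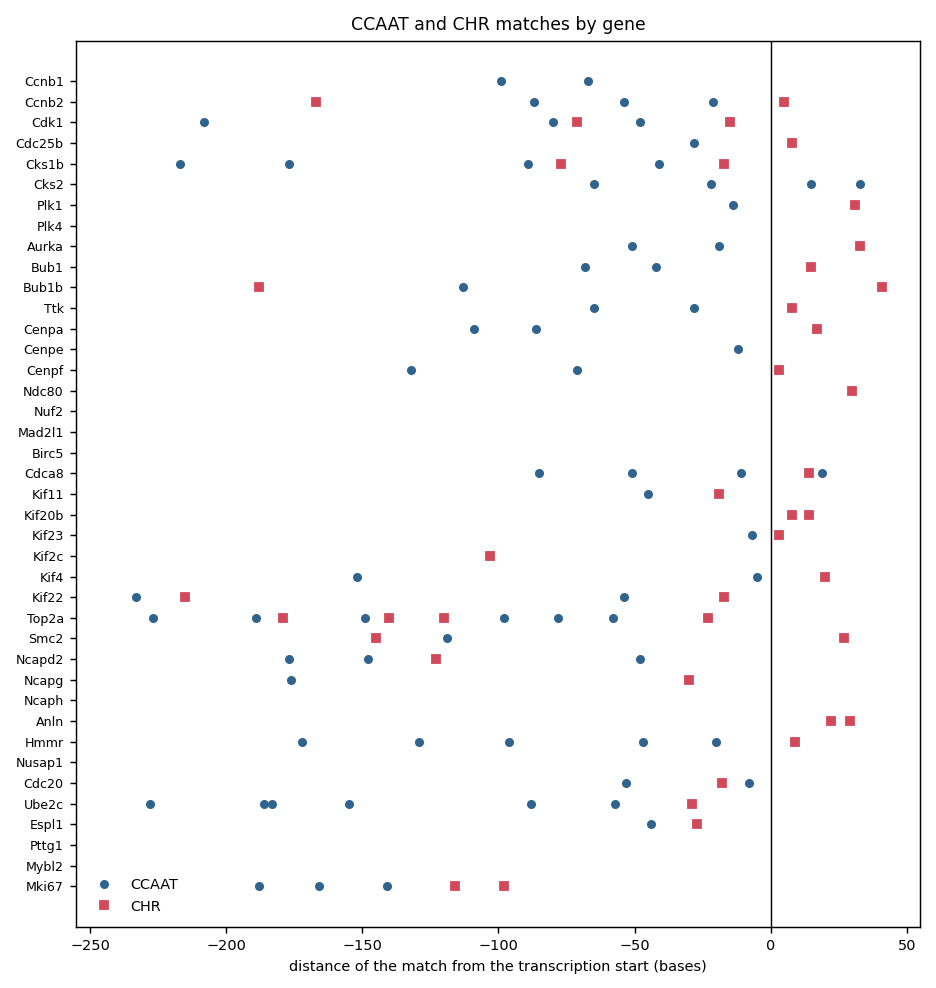
Positions of CCAAT matches (circles) and CHR matches (squares), on either strand, in bases from the transcription start (vertical line), for the members with a single promoter in the table (1 row per gene). CCAAT matches lie mostly before the start and CHR matches mostly near it or just after it, and several rows, such as those of Plk4, Nuf2 and Nusap1, hold neither.

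Genes with and without a CHR match were set side by side. At day 2 the median log2 fold change was -0.82 over the 31 with a match, of which 29 were lower, and -0.85 over the 11 without, of which 10 were lower. At day 1 the medians were -0.40 and -0.47. No test was run on this split.

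Counts per library ranged from 16320275 to 24037170, and the lowest count of any of the 50 genes in a library of days 0 to 2 was 42. Levels are given as CPM, counts scaled to a common library total after correction by the trimmed mean of M values, and as RPKM, CPM per kilobase of exon, where genes are compared. A gene was called higher or lower at a Benjamini-Hochberg adjusted P value under 0.05 over all 11959 genes, by edgeR's quasi-likelihood test, and a fold change over 1.25, and each ± after a log2 fold change is its standard error. The labels call all samples adipocytes. In vehicle at day 0 the adipocyte genes Adipoq, Plin1 and Cidec were at 0.283, 0.314 and 0.963 CPM. Fabp4, Pparg and Lpl, the other adipocyte genes listed, were at 50.6, 53.4 and 1237 CPM in these libraries. Adipoq reached 493 CPM in vehicle at day 2. Of the macrophage markers listed, Cd68 was in the table, and after C70 it was at 18.7 to 19.8 CPM at day 0, 13.6 to 15.1 at day 1 and 6.35 to 6.94 at day 2, against at most 2.01 CPM in vehicle on these days. Adgre1, Ptprc and Csf1r and all 4 endothelial and 4 epithelial markers listed were absent from the count table, which the authors had filtered on low genes. Cd68 is thus the only macrophage marker with a level here.

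In vehicle, 23 of the 50 genes rose from day 0 to day 1, against 26.2% of all genes, and 3 fell (Plk4, Kif23 and Mybl2), against 27.9%, with a median log2 fold change of 0.28. The largest rises were those of Top2a, topoisomerase II alpha (log2 fold change 1.09 ± 0.085, adjusted P value 9.08e-13), Nusap1, a microtubule-binding protein (log2 fold change 1.03 ± 0.089, adjusted P value 8.71e-12), and Hmmr, a spindle protein (log2 fold change 0.88 ± 0.10, adjusted P value 7.86e-09). From day 1 to day 2, 3 rose (Plk4, Ttk and Mad2l1), against 22.3%, and 20 fell, against 21.99%. From day 2 to day 7, 49 of the 50 fell, against 26.7%, with a median of -4.09. The exception was Cks1b, a small subunit of CDK complexes (log2 fold change -0.20 ± 0.098, adjusted P value 0.0681).

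After C70, 8 genes rose from day 0 to day 1, against 25.8% of all genes, and 9 fell, against 26.8%, with a median of -0.0086. All 8 were among the 23 that rose in vehicle. From day 1 to day 2, 37 fell, against 18.1%, and none rose by edgeR or DESeq2 (2 at an unadjusted P value under 0.05). These 2 also passed edgeR's adjusted P value, but their rises were short of the fold threshold. From day 2 to day 7, 46 fell, against 27.2%, the other four being Cks1b (-0.11), Cdc25b (-0.29), Smc4 (-0.21) and Anln (0.30). The mean level was highest at day 0 for 10 genes, at day 1 for 25 and at day 2 for 15 in vehicle, and at day 0 for 25, at day 1 for 23 and at day 2 for 2 after C70.

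The summed CPM of the 50 genes showed the same course. In vehicle it ran from 1568 to 1859 at day 0, from 1989 to 2246 at day 1, from 1687 to 1739 at day 2 and from 248 to 262 at day 7. After C70 it ran from 1554 to 1610, from 1599 to 1818, from 1016 to 1067 and from 260 to 268. The vehicle and C70 libraries overlapped at day 0 and at day 7, and did not overlap at days 1 and 2. Relative to vehicle at day 0, the vehicle mean was 128% at day 1 and 102% at day 2, and the C70 mean 101% and 62.8%.

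**Figure D2:**
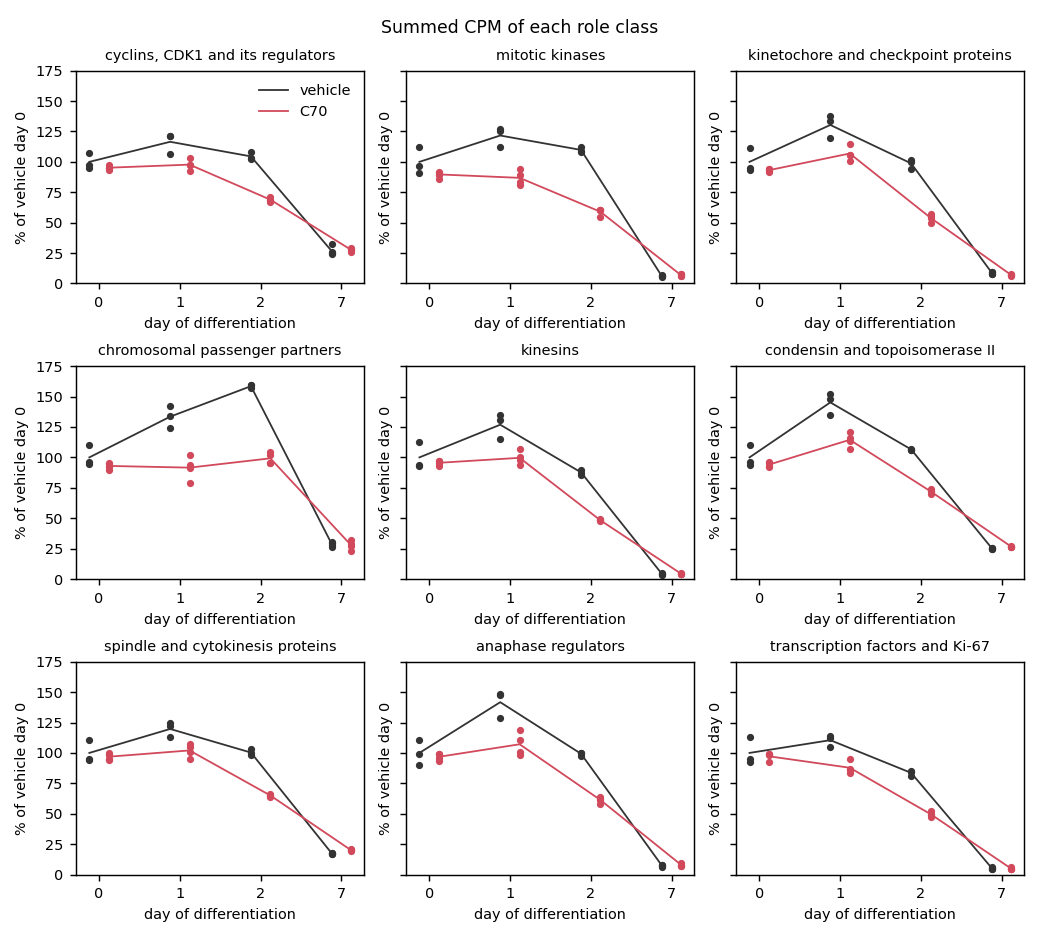
Summed CPM of the genes of each role class, in percent of the vehicle mean at day 0 (vertical axis), at days 0, 1, 2 and 7 (horizontal axis, evenly spaced). Points are libraries and lines join the group means for vehicle (dark) and C70 (red). At day 2 the C70 means run from 48.3% (kinesins) to 99.2% (chromosomal passenger partners), each below its vehicle mean. The lines lie close together at day 7, but not every class is level there. All C70 libraries of day 7 are below all vehicle libraries in the kinetochore class. They are above all vehicle libraries in the condensin and spindle classes, and the libraries overlap in the other classes.

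The question at day 0 was whether the mitosis genes had already moved at the end of the treatment. Of the 50, only Plk4 was lower, against 3.09% of all genes, and none was higher, against 5.89%, by edgeR or by DESeq2. At an unadjusted P value under 0.05, 7 were lower and 0 higher, where 3687 of all 11959 genes passed in either direction. Plk4, the kinase of centriole duplication, stood at 14.7, 16.5 and 16.6 CPM in vehicle and 12.8, 11.7, 10.9 and 12.7 CPM after C70, with no overlap (log2 fold change -0.40 ± 0.078, adjusted P value 3.28e-04). On the adjusted P value alone 3 further genes passed, which were Bub1b (-0.27), Kif22 (-0.30) and Smc4 (-0.19). With Plk4 these made 4 of the 50, against 1066 of all 11959 genes lower on that criterion, a share near that of all genes. The median log2 fold change was -0.080, and over all genes -0.00043. Vehicle replicate 2 held the highest summed level of its group, and without it the median over the 50 genes was -2.9e-05. Without vehicle replicate 3 the number lower was 3.

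At day 1, 34 of the 50 genes were lower after C70, against 7.80% of all genes, and none was higher, against 13.6%, by edgeR or by DESeq2. At an unadjusted P value under 0.05, 43 were lower and 1 higher, where 5759 of all 11959 genes passed in either direction. Every C70 library was below every vehicle library for 40 of the 50, against 23.8% of all genes. The median log2 fold change was -0.41, and over all genes -0.0060. The count was largest in proportion among the mitotic kinases (7 of 7), the chromosomal passenger partners (3 of 3) and the transcription factors with Ki-67 (3 of 3). It was 4 of 8 for the cyclins, CDK1 and its regulators, 4 of 6 for the kinetochore and checkpoint genes, 4 of 7 for the kinesins, 4 of 6 for condensin with topoisomerase II, 3 of 6 for the spindle and cytokinesis genes and 2 of 4 for the anaphase regulators. Ccnb2, Cks1b, Cenpf, Kif4, Tpx2, Nusap1 and Pttg1 missed the adjusted P value. Ccna2, Cenpe, Kif20a, Kif23, Smc4, Ncapd2, Prc1 and Cdc20 passed it but were short of the fold threshold, at most 19.7% below vehicle, and Cdc25b was above vehicle.

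At day 2 the number rose to 47 of 50, with a median of -0.82 against -0.0036 over all genes. By edgeR, by DESeq2 and at an unadjusted P value under 0.05 alike, 0 were higher. Of all 11959 genes, 6701 passed at an unadjusted P value under 0.05 in either direction. For 49 of the 50 every C70 library was below every vehicle library, against 29.01% of all genes. All 34 genes lower at day 1 were lower at day 2, and 13 more were added. Each of the 50 was further below vehicle, or less far above it, at day 2 than at day 1. By class, all kinases, kinetochore, chromosomal passenger, kinesin, condensin, anaphase and transcription factor genes were called lower, with 6 of 8 in the cyclin class and 5 of 6 in the spindle class. The class medians were -0.76 for the cyclins, CDK1 and its regulators, -0.90 for the kinases, -0.85 for the kinetochore, -0.87 for the passenger partners, -0.81 for the kinesins, -0.58 for condensin with topoisomerase II, -0.85 for the spindle class, -0.68 for the anaphase regulators and -0.77 for the transcription factors with Ki-67. The count of 47 held when each library in turn was left out.

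**Figure D3:**
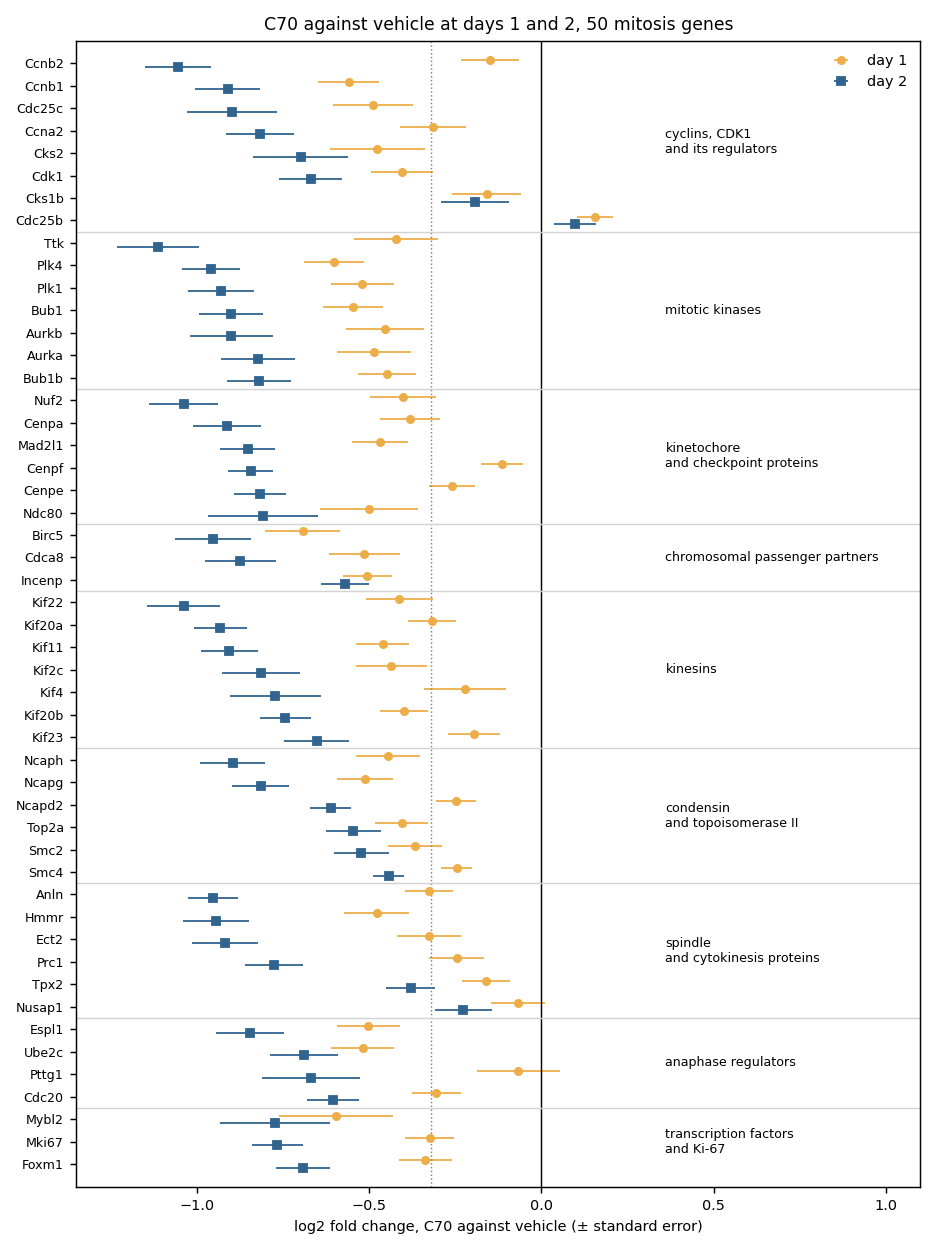
Log2 fold change of C70 against vehicle (horizontal axis) with its standard error, for the 50 genes (rows) at day 1 (circles) and day 2 (squares), grouped by role class. The dotted line is a fold change of 1.25 downwards. The day 2 points lie to the left of the day 1 points in all rows, including Cdc25b, whose points are the only pair right of 0.

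Among the cyclins, CDK1 and its regulators, Ccna2 (cyclin A2) had the highest CPM. At day 2 it stood at 49.97, 51.7 and 53.1 CPM in vehicle and 30.0, 28.2, 31.5 and 27.4 CPM after C70. All C70 values were below all vehicle values (log2 fold change -0.82 ± 0.098, adjusted P value 3.11e-08). At day 1 the groups did not overlap either, but the fold change was just under the threshold (log2 fold change -0.31 ± 0.096, adjusted P value 0.00937), and it passed without vehicle day 1 replicate 1 or without C70 day 1 replicate 1 or 3. Ccna2 overlaps Exosc9 on the other strand. Ccnb2 (cyclin B2) was at 19.2, 22.4 and 20.6 CPM in vehicle and 17.98, 16.8, 19.2 and 20.7 after C70 at day 1, where the groups overlapped (log2 fold change -0.15 ± 0.083, adjusted P value 0.157). By day 2 it stood at 14.7, 15.96 and 14.9 CPM in vehicle and 6.40, 7.48, 6.88 and 8.40 CPM after C70, the largest fall of the class (log2 fold change -1.06 ± 0.096, adjusted P value 1.25e-10). The change between these 2 days was itself past the threshold (log2 fold change -0.91 ± 0.13, adjusted P value 5.65e-06). Ccnb1 (cyclin B1) had fallen at day 1 (-0.56) and day 2 (-0.91), and Cdk1 likewise (-0.40 and -0.67). A pseudogene is annotated for each of the B cyclins, and reads could be split between the copies.

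Both CDC25 phosphatases among the 50 genes remove inhibitory phosphates from CDK1. Cdc25c fell at day 1 (-0.49) and day 2 (-0.90). Cdc25b was at 32.7, 33.8 and 34.2 CPM in vehicle and 35.0, 37.8, 38.2 and 38.7 after C70 at day 1, with every C70 library above every vehicle library but a change under the fold threshold (log2 fold change 0.16 ± 0.053, adjusted P value 0.0181). At day 2 it stood at 15.3, 15.8 and 15.3 CPM and 15.6, 17.5, 16.9 and 16.3 CPM (log2 fold change 0.10 ± 0.061, adjusted P value 0.188). Its own course was a fall from day 1 to day 2 in both arms, of -1.12 in vehicle and -1.17 after C70 on the log2 scale. Cdc25b overlaps Spef1 on the other strand. Of the small CDK-binding subunits, Cks2 fell at day 2 (log2 fold change -0.70 ± 0.14, adjusted P value 8.83e-05) and Cks1b did not pass (log2 fold change -0.19 ± 0.098, adjusted P value 0.102). Per length, Cks1b had the highest level of all 50 genes at day 7, 25.3 ± 4.42 RPKM (mean ± SD, n = 4) in vehicle and 23.5 ± 2.15 after C70, where Cks2 was at 3.61 ± 0.667 and 3.07 ± 0.680.

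The mitotic kinases fell as a block, with log2 fold changes between -0.60 and -0.42 at day 1 and between -1.11 and -0.82 at day 2. Bub1b (BubR1, of the spindle assembly checkpoint) was at 36.7, 33.7 and 35.6 CPM in vehicle and 18.998, 18.8, 20.9 and 21.2 CPM after C70 at day 2. The C70 libraries were all below the vehicle libraries (log2 fold change -0.82 ± 0.093, adjusted P value 1.10e-08), as at day 1 (log2 fold change -0.45 ± 0.084, adjusted P value 7.58e-05). Ttk (Mps1, which starts the checkpoint at unattached kinetochores) rose in vehicle from 8.67, 11.6 and 11.9 CPM at day 1 to 15.7, 15.1 and 16.5 CPM at day 2 (log2 fold change 0.55 ± 0.12, adjusted P value 2.12e-04). After C70 it stood at 8.63, 8.81, 7.80 and 6.81 CPM at day 1 and 8.22, 7.03, 6.35 and 7.48 CPM at day 2, a change that did not pass the test (log2 fold change -0.14 ± 0.12, adjusted P value 0.348). Against vehicle Ttk was lower at day 1 (log2 fold change -0.42 ± 0.12, adjusted P value 0.00629), a call that was lost without vehicle day 1 replicate 3, and at day 2 (log2 fold change -1.11 ± 0.12, adjusted P value 3.54e-09). The others at day 2 were Plk1, the Polo kinase of mitotic entry (-0.93), Plk4 (-0.96), Aurka, the spindle pole Aurora kinase (-0.82), Aurkb, its chromosomal passenger relative (-0.90), and Bub1 (-0.90).

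**Figure D4:**
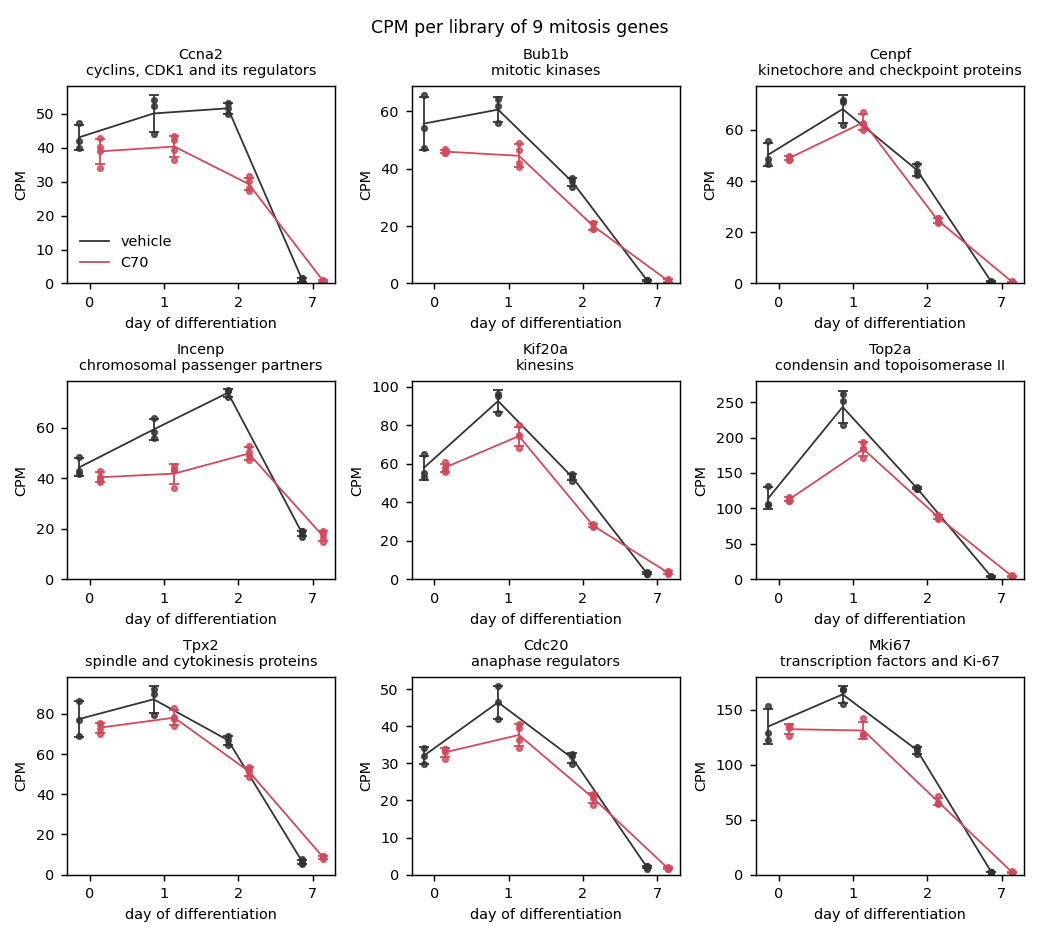
CPM (vertical axis, from 0) at days 0, 1, 2 and 7 (horizontal axis, evenly spaced) of the gene with the highest mean CPM in each of the 9 role classes. Points are libraries, bars the mean ± SD, and lines join the means of vehicle (dark) and C70 (red). At day 2 the C70 points lie below the vehicle points in every panel, and at day 7 the groups lie together near the axis except for Incenp.

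Between days 1 and 2 the effect of C70 on the kinetochore and checkpoint genes grew by a median of -0.55 on the log2 scale, and by -0.37 over all 50 genes. Cenpf, a large kinetochore protein, was at 61.8, 71.0 and 71.6 CPM in vehicle and 59.8, 62.6, 67.2 and 62.3 CPM after C70 at day 1, and these overlapped (log2 fold change -0.11 ± 0.060, adjusted P value 0.134). At day 2 it was at 42.2, 46.8 and 43.9 CPM and 23.6, 25.5, 24.2 and 25.4 CPM, with a wide gap between the groups (log2 fold change -0.84 ± 0.066, adjusted P value 5.09e-12). Nuf2, a subunit of the NDC80 complex that binds microtubules, stood at 18.6, 19.97 and 23.7 CPM in vehicle and 8.43, 11.8, 9.70 and 10.4 CPM after C70 at day 2, the largest fall of the class (log2 fold change -1.04 ± 0.10, adjusted P value 3.99e-10). Its partner Ndc80 had the smallest, at 7.601, 7.53 and 8.54 CPM and 3.255, 5.85, 4.01 and 4.87 CPM (log2 fold change -0.81 ± 0.16, adjusted P value 9.22e-05), and both fell at day 1 as well, Ndc80 by 29.4% and Nuf2 by 24.3%. The Ndc80 call at day 1 was lost with quantile normalization and limma (adjusted P value 0.106). Cenpa, the histone H3 variant of centromeres, Cenpe, a kinetochore kinesin, and Mad2l1 (MAD2, of the checkpoint) were at -0.91, -0.82 and -0.85 at day 2.

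The 3 partners of Aurora B in the chromosomal passenger complex were lower by day 1, and between days 1 and 2 the median difference was -0.26. Incenp, the scaffold, kept rising in mean in vehicle, from 55.9, 58.3 and 63.9 CPM at day 1 to 72.2, 75.0 and 74.7 CPM at day 2, and after C70 was at 43.5, 36.0, 44.9 and 43.2 CPM and 47.2, 52.8, 50.6 and 48.8 CPM. Its groups did not overlap on either day (log2 fold change -0.51 ± 0.071, adjusted P value 1.03e-06 at day 1 and log2 fold change -0.57 ± 0.070, adjusted P value 4.35e-08 at day 2). Birc5 (survivin) was at 19.4, 21.4 and 21.5 CPM in vehicle and 12.5, 10.8, 16.1 and 12.2 CPM after C70 at day 1, the largest day 1 fall among the 50 genes (log2 fold change -0.69 ± 0.11, adjusted P value 5.37e-06). At day 2 it was at 22.4, 20.8 and 20.9 CPM and 10.5, 11.4, 11.6 and 10.7 CPM, again with no overlap (log2 fold change -0.95 ± 0.11, adjusted P value 1.56e-08). Cdca8 (borealin) was at -0.51 and -0.87 on these days. All 3 differed between the day 1 and day 0 effects of C70, and none between day 2 and day 1, by the test of the difference.

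All 7 kinesins were lower at day 2. Kif20a, of the central spindle and cytokinesis, had the highest CPM and stood at 52.9, 51.2 and 54.3 CPM in vehicle and 26.9, 27.5, 28.6 and 27.7 CPM after C70. The groups lay far apart (log2 fold change -0.93 ± 0.077, adjusted P value 1.38e-11), where at day 1 the change had been short of the fold threshold (log2 fold change -0.32 ± 0.070, adjusted P value 5.05e-04) and passed it without vehicle day 1 replicate 1 or C70 day 1 replicate 3. Kif20a overlaps Cdc23 on the other strand. Kif22, a chromosome-bound kinesin, was at 17.7, 15.6 and 16.6 CPM and 8.65, 7.82, 8.86 and 7.12 CPM at day 2, the largest fall of the class (log2 fold change -1.04 ± 0.11, adjusted P value 1.31e-09). Kif23, of the centralspindlin complex, had the smallest, at 8.46, 9.62 and 9.77 CPM and 6.46, 6.07, 5.75 and 5.33 CPM (log2 fold change -0.65 ± 0.095, adjusted P value 9.93e-07), and in vehicle it already declined from day 0 to day 1 (-0.38) and from day 1 to day 2 (-1.16). Kif11 (Eg5, which pushes the spindle poles apart) was at -0.91, Kif2c (MCAK, which shortens microtubules) at -0.81, Kif4, a chromokinesin, at -0.77 and Kif20b at -0.74. Kif4 and Kif22 each have an annotated pseudogene, and Kif4 overlaps Pdzd11.

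The condensin class, with topoisomerase II alpha, had the least negative median at day 2. Ncaph, the kleisin of condensin I, was at 21.8, 22.8 and 25.2 CPM in vehicle and 12.5, 11.5, 13.5 and 12.5 CPM after C70, the largest fall of the class (log2 fold change -0.90 ± 0.095, adjusted P value 2.60e-09). Smc4, an ATPase core shared by both condensins, was at 108, 110 and 110 CPM and 76.0, 79.9, 83.1 and 83.3 CPM, with no overlap but the smallest change (log2 fold change -0.44 ± 0.045, adjusted P value 1.46e-09). Its partner Smc2 was at -0.52, and Ncapg and Ncapd2, of condensin I, at -0.82 and -0.61. Top2a rose steeply in vehicle to 217, 252 and 261 CPM at day 1 and returned to 128, 127.2 and 129.8 CPM at day 2. After C70 it was at 186, 171, 194 and 184 CPM and 84.9, 89.1, 86.6 and 90.8 CPM, below vehicle with no overlap on both days (log2 fold change -0.41 ± 0.077, adjusted P value 9.20e-05 and log2 fold change -0.55 ± 0.080, adjusted P value 1.09e-06). Smc4 stayed well expressed at day 7, at 12.1 ± 0.332 RPKM (mean ± SD, n = 4) in vehicle and 13.4 ± 0.522 after C70, where Ncaph was at 0.252 ± 0.115 and 0.323 ± 0.0277. Among genes not in the list, the condensin II subunits Ncapg2 and Ncapd3 were lower at day 2 and Ncaph2 was not called, with values from -0.77 to -0.040.

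The spindle and cytokinesis genes ranged from -0.95 to -0.23 at day 2. Anln (anillin, of the contractile ring) was at 43.6, 45.7 and 45.7 CPM in vehicle and 22.04, 23.2, 23.9 and 23.7 CPM after C70 at day 2, about as far apart as the kinases (log2 fold change -0.95 ± 0.073, adjusted P value 3.04e-12). At day 1 its call lay close to the fold threshold (log2 fold change -0.33 ± 0.069, adjusted P value 3.04e-04) and was lost without any 1 of vehicle replicates 2 and 3 and C70 replicates 2 and 4 of that day and with the replicate block. Tpx2, an activator of Aurora A, was at 69.0, 64.7 and 67.1 CPM and 53.8, 52.4, 50.9 and 48.7 CPM (log2 fold change -0.38 ± 0.071, adjusted P value 4.25e-05). Nusap1 was at 30.3, 28.5 and 31.0 CPM and 26.1, 25.6, 25.1 and 25.4 CPM, with no overlap and a change short of the fold threshold (log2 fold change -0.23 ± 0.083, adjusted P value 0.0230), and it overlaps Oip5 on the other strand. Nusap1 rose from day 0 to day 1 after C70 (log2 fold change 1.07 ± 0.078, adjusted P value 2.02e-13) and in vehicle, and the difference between these did not pass the test (log2 fold change 0.037 ± 0.12, adjusted P value 0.876). Prc1, which bundles midzone microtubules, Ect2, the exchange factor for RhoA in cytokinesis, and Hmmr were at -0.78, -0.92 and -0.94.

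Of the anaphase regulators, Cdc20, an activator of the anaphase-promoting complex, was at 31.9, 29.8 and 32.4 CPM in vehicle and 18.8, 21.7, 21.3 and 20.8 CPM after C70 at day 2. The groups did not overlap and the fall was the smallest of the class (log2 fold change -0.60 ± 0.076, adjusted P value 7.42e-08). Its day 1 change was short of the fold threshold (-0.30) and passed it without vehicle replicate 1 or C70 replicate 1 or 3 of that day. Espl1 (separase) had the largest, at 22.3, 26.4 and 23.5 CPM and 12.1, 13.4, 14.1 and 14.04 CPM (log2 fold change -0.85 ± 0.099, adjusted P value 1.98e-08), and it fell at day 1 too (log2 fold change -0.50 ± 0.091, adjusted P value 5.12e-05). Pttg1 (securin, the inhibitor of separase) was at -0.067 at day 1, not called, and at -0.67 at day 2. Ube2c, the ubiquitin-conjugating enzyme of the complex, was at -0.52 and -0.69. Cdc20 and Ube2c overlap Elovl1 and Tnnc2 on the other strand.

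The transcription factors Foxm1 and Mybl2, which act on late cell cycle genes, and Mki67 (Ki-67, a coat of mitotic chromosomes) were lower on both days. Mki67 was at 155, 168 and 169 CPM in vehicle and 126, 128, 142 and 128 CPM after C70 at day 1 (log2 fold change -0.32 ± 0.072, adjusted P value 5.20e-04). At day 2 it was at 110, 116 and 113 CPM and 65.3, 63.9, 65.1 and 71.6 CPM, with a clear gap (log2 fold change -0.77 ± 0.074, adjusted P value 4.19e-10). Foxm1 was at 36.3, 38.7 and 39.4 CPM and 20.8, 25.5, 24.1 and 24.1 CPM at day 2 (log2 fold change -0.69 ± 0.079, adjusted P value 1.40e-08), and its day 1 change was -0.34. The day 1 calls of Mki67 and Foxm1 lay near the fold threshold, and that of Mki67 was lost in most fits that left out a day 1 library and that of Foxm1 without vehicle replicate 3 or C70 replicate 1 of that day. Mybl2 was the lowest of the 50 per length at day 2 in vehicle, 1.13 ± 0.160 RPKM (mean ± SD, n = 3), and stood at 5.98, 4.50 and 5.22 CPM in vehicle and 2.99, 3.82, 2.51 and 2.87 CPM after C70 (log2 fold change -0.77 ± 0.16, adjusted P value 1.51e-04). In vehicle Foxm1 was at -0.26 and Mybl2 at -0.48 from day 0 to day 1 and Mki67 at 0.28, only the change of Mybl2 being called.

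Whether the effect of C70 grew from day to day was tested directly. Between days 0 and 1 the effect became more negative for 19 of the 50 genes, against 8.81% of all genes, with a median difference of -0.31. This count was 8 without vehicle day 0 replicate 3 and 25 without vehicle day 0 replicate 2, and 7 with quantile normalization and limma. Between days 1 and 2 it became more negative for 29, against 8.77%, with a median of -0.37, and all 50 differences were below 0. With quantile normalization and limma the count was 14. These 29 included 6 of 7 kinesins and 5 of 6 kinetochore genes, and 3 of 6 in the condensin class. The largest was that of Ccnb2, given above, followed by Cenpf (log2 fold change -0.73 ± 0.090, adjusted P value 7.03e-07) and Ttk (log2 fold change -0.69 ± 0.17, adjusted P value 0.00405). Between days 2 and 7 the effect moved upwards for 28, against 16.5%, with a median of 0.71.

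At day 7 most of these genes were scarcely expressed, and the differences between C70 and vehicle were mixed. After C70, 4 were lower, against 4.85% of all genes, and 7 were higher, against 14.3%. The 7 were Cdk1 (0.40), Cdc25b (0.34), Plk4 (0.49), Bub1, Birc5 (0.73), Tpx2 (0.44) and Nusap1 (0.70), and the 4 were Nuf2 (-0.87), Kif23 (-0.88), Ncapg (-0.83) and Mybl2 (-0.61). Cdc25b was at 10.9, 11.3, 10.1 and 10.7 CPM in vehicle and 13.7, 12.7, 15.4 and 12.6 CPM after C70, so that every C70 library was above every vehicle library (log2 fold change 0.34 ± 0.063, adjusted P value 7.39e-05). Nusap1 was at 3.72, 2.20, 2.55 and 2.91 CPM and 3.70, 3.61, 6.01 and 5.06 CPM, and here 1 vehicle library reached the C70 range (log2 fold change 0.70 ± 0.15, adjusted P value 2.79e-04). Bub1 rested on 0, 3, 3 and 3 counts in the vehicle libraries and 3, 6, 5 and 9 in the C70 libraries, too few for a fold change.

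Depth set a limit at day 7. For 12 of the 50 genes every day 7 library held more than 50 counts, for 3 genes every library held 10 or fewer, and for 5 genes at least 1 library held 3 or fewer. None of the lower calls was left without vehicle day 7 replicate 4, 1 was left in a fit of the vehicle and C70 groups of day 7 alone, where 4 were higher, and quantile normalization with limma gave 20 lower and 2 higher. Under that normalization the median log2 fold change over all genes was -0.041. The share of all genes called in these fits is not given here. The calls of Nuf2, Kif23, Mybl2 and Birc5 were each lost without at least 2 different single libraries. That of Cdc25b fell under the fold threshold without vehicle or C70 replicate 3 of day 7, and with quantile normalization those of Cdc25b, Tpx2 and Birc5 were lost.

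**Figure D5:**
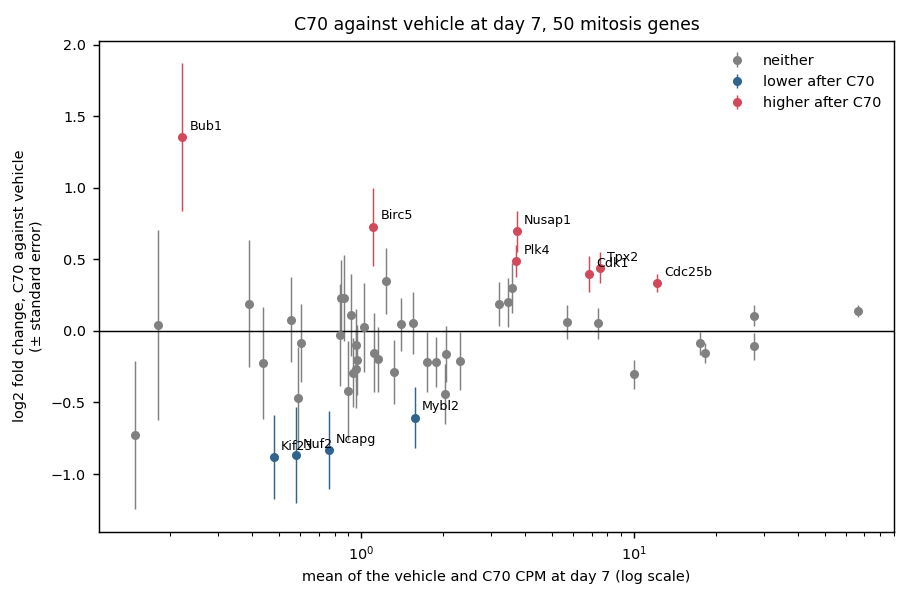
Log2 fold change of C70 against vehicle at day 7 with its standard error (vertical axis) against the mean of the vehicle and C70 CPM (horizontal axis, log scale), for the 50 genes. The 7 genes called higher and the 4 called lower are coloured and named, and the errors widen to the left, where the counts are fewest.

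Of 53 further mitosis genes in the table, 32 were lower at day 1 (median -0.37), against 7.80% of all genes, and 44 at day 2 (median -0.70), against 13.6%. None was higher on either day, against 13.6% and 16.9%. At day 2 the largest fall was that of Spc24, a subunit of the NDC80 complex (-1.16 ± 0.14, adjusted P value 4.50e-08), and the smallest change that of Dsn1, of the MIS12 complex (-0.0070 ± 0.091, adjusted P value 0.959). At day 7, 1 was lower, against 4.85%, and 3 were higher, against 14.3%.

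Markers of the differentiation state moved over the same days. The summed CPM of the 6 adipocyte markers was 4971 to 5232 in vehicle and 3095 to 3219 after C70 at day 1, and 22050 to 22913 and 12440 to 13864 at day 2. The summed CPM of the 5 preadipocyte markers in the table was 1745 to 1786 in vehicle and 2246 to 2389 after C70 at day 1, and 699 to 727 and 1063 to 1147 at day 2. At day 2, 5 of the 6 adipocyte markers were lower after C70, against 13.6% of all genes, and 4 of the 5 preadipocyte markers were higher, against 16.9%. The groups did not overlap in either sum at days 1 and 2. The preadipocyte sum was also apart at day 0, 3824 to 3982 in vehicle and 4415 to 4705 after C70. At day 7 it was 375 to 513 and 801 to 940. The adipocyte sum at day 0 was higher after C70, 1276 to 1399 in vehicle and 1453 to 1508 after C70. At day 7 it was 22144 to 26090 and 24137 to 26478, with overlap. Bulk RNA does not show which cells held the Cd68 RNA. The part of the differentiation state, or of the higher Cd68 level, in the lower levels of the mitosis genes was not tested.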

How the data were processed

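RNA-seq data were analysed for 29 libraries of 3T3-L1 cells. Libraries were strand-specific (NuGEN Universal plus mRNA-Seq), and the submitters' processing notes name STAR 2.7.2a, GRCm38 and edgeR 3.26.8. The authors deposited raw whole-number counts per gene for 11959 genes left after their own filter on low genes. The counting program and its use of strand are not given in the sources used here. For genes that overlap one on the other strand, the reads of the pair may thus not be told apart. Such genes include Ccna2, Cdc25b, Cdc20, Kif20a, Kif4, Ncapg, Prc1, Nusap1 and Ube2c, which overlap a coding gene, and Cdca8, which overlaps 9930104L06Rik. Foxm1 overlaps Tex52 on the same strand. Symbols and exon lengths came from the annotation of GRCm38, and all 11959 identifiers matched.

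Here counts were scaled by the trimmed mean of M values and fitted in R 4.3.3 with edgeR 4.0.16 (quasi-likelihood test, 8 group means, no covariate). Within a comparison, the Benjamini-Hochberg adjustment ran over all genes. A gene passed when its adjusted P value was below 0.05 and its change exceeded 1.25-fold. Differences between the C70 effects of 2 days passed on the adjusted P value alone. In each role class, values per library are given for the gene of highest mean CPM, of largest fall and of smallest fall or largest rise at day 2, and others by fold changes or counts. The genes, their classes and the other lists were chosen with earlier results of these data known. Alternatives were DESeq2 1.42.0, its size factors, quantile normalization with limma 3.58.1, a fit of the 8969 genes above the lowest mean levels, the adjusted P value alone, fits of 2 groups, a replicate block and leaving out each library. The fit was tested on simulated data. Replicates differed by more than counting noise, with a chi-square per degree of freedom of 2.65 to 46.7 over 39 pairs (median 5.09). The highest values (46.7, 45.9 and 39.8) were those of the pairs with vehicle day 7 replicate 1, and all others were at most 13.95. Python 3.11.15, pandas 2.3.3 and matplotlib 3.10.9 were used for tables and plots.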

Additional observations from a re-analysis of the deposited data

Results flagged for a closer look

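In groups of 4 libraries, 16 of 305 values tested held 1 library that stood apart from the other three by Dixon's criterion, where about 15.2 would be called by chance. At day 0, after C70, these were Ttk at 8.74 CPM in replicate 4 (others 6.95 to 7.14), Birc5 at 15.2 in replicate 3 (others 12.2 to 12.6), Cdca8 at 13.4 in replicate 1 (others 10.9 to 11.2), Kif22 at 14.3 in replicate 4 (others 14.7 or just above) and Smc4 at 87.8 in replicate 2 (others 96.4 to 96.8). At day 1, after C70, they were Kif11 at 31.8 CPM and Mki67 at 142 CPM, both in replicate 3. At day 2, C70 replicate 1 was low in the summed CPM of the 50 genes (1016, others 1061 to 1067) and of the mitotic kinases (82.8, others 91.3 to 91.9). At day 7 they were Ccnb1 at 0.845 CPM in vehicle replicate 2, Bub1 at 0 in vehicle replicate 1, Ndc80 at 0.369 and Mki67 at 3.06 in C70 replicate 4, and Espl1 at 1.66 in C70 replicate 2. Total counts stood apart in vehicle day 7 replicate 3 (21433580) and in C70 day 0 replicate 4 (24037170).

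The effect of C70 differed between days by the edgeR test of the difference, on the log2 scale. From day 0 to day 1 it became more negative for 19 genes. Of those described in full they were Birc5 (-0.63), Incenp (-0.37), Kif20a (-0.32), Top2a (-0.38), Anln (-0.36), Cdc20 (-0.35) and Mki67 (-0.30), with adjusted P values from 0.00409 to 0.0358. From day 1 to day 2 it became more negative for 29 genes, among them Ccna2 (-0.50), Ccnb2 (-0.91), Bub1b (-0.37), Ttk (-0.69), Cenpf (-0.73), Nuf2 (-0.64), Kif20a (-0.61), Kif23 (-0.46), Kif22 (-0.63), Smc4 (-0.20), Ncaph (-0.45), Anln (-0.63), Cdc20 (-0.30), Foxm1 (-0.36) and Mki67 (-0.44), with adjusted P values from 7.03e-07 to 0.0393.

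From day 2 to day 7 the effect moved upwards for 28 genes, among them Ccnb2 (1.13), Cdc25b (0.24), Ttk (0.90), Birc5 (1.68), Incenp (0.48), Kif20a (1.12), Kif22 (0.75), Top2a (0.75), Smc4 (0.58), Ncaph (1.25), Tpx2 (0.82), Anln (1.06), Nusap1 (0.92), Espl1 (0.96), Foxm1 (0.75) and Mki67 (0.61), with adjusted P values from 2.20e-09 to 0.0393. The counts behind many of the day 7 values were low.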

How the results depend on the processing

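The count of 47 genes lower at day 2 was 47 under DESeq2, its size factors, quantile normalization and without each library. Quantile normalization with limma gave 20 lower and 2 higher at day 7 (median -0.32, and over all genes -0.041), medians of -3.74 in vehicle and -3.07 after C70 from day 2 to day 7, and counts of 7 and 14 genes with a more negative effect from day 0 to 1 and from day 1 to 2, with a median of 0.47 from day 2 to 7. Shares of all genes called are not given for this fit or the next. After removal of the weakest genes by mean level, 8969 genes and 26 of the 50 were left. Of these, against vehicle 0 were lower at day 0, 11 at day 1 (median -0.31), 23 at day 2 (-0.71) and 0 at day 7, with 4 higher (0.080). In vehicle 0 fell and 13 rose from day 0 to 1, 1 rose from day 1 to 2 (-0.34) and 25 fell from day 2 to 7 (-3.48). After C70 3 fell and 5 rose, then 21 fell (-0.72), then 22 fell (-2.79), and the effect was more negative for 11 and less so for 1 from day 0 to 1 and more negative for 17 from day 1 to 2. On the adjusted P value alone 4 were lower at day 0, against 1066 of all 11959 genes, and 1 was higher at day 1, against 2514. With only the groups compared, 1 was lower and 4 were higher at day 7. Over fits without 1 library, the number lower was 1 to 3 at day 0 and 0 to 5 at day 7, and the medians were -0.11 to -2.9e-05 at day 0, -0.49 to -0.34 at day 1 and -0.19 to 0.032 at day 7. The medians were 0.25 to 0.37 (vehicle, day 0 to 1), -4.14 to -4.02 (vehicle, day 2 to 7), -0.68 to -0.59 (C70, day 1 to 2) and -3.36 to -3.19 (C70, day 2 to 7, with 0 to 1 rising). The effect from day 0 to 1 was more negative for 8 to 25 and less so for 0 to 1 (median -0.38 to -0.26), and the median from day 2 to 7 was 0.58 to 0.80. The cause of these changes was not tested. The fit without the lowest held fewer of the 50 genes, but some genes still in it lost their calls. These were Anln (-0.31), Mki67 (-0.30) and Foxm1 (-0.32) at day 1, among the genes described in full.

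With a replicate block 47 were lower at day 2, and Anln at day 1 (-0.31) was the only call lost among the genes described in full. The labels do not pair same-numbered replicates. Of 13 such pairs, 3 had a correlation over 0.1 in their deviations from the group means (range -0.28 to 0.28), which cannot exclude shared handling. At day 7 depth limits most of these genes, since 12 of 50 held more than 50 counts in every library.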

Other observations

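Gene groups that act with the mitosis genes but are not themselves limited to mitosis were looked at beside them at day 2, when 13.6% of all genes were lower after C70 and 16.9% were higher. Of 15 genes of the anaphase-promoting complex in the table, 2 were lower after C70 (Fzr1 and Cdc27) and none was higher, a share of lower genes near that of all genes, with a median log2 fold change of -0.0063, from Fzr1, its activator on exit from mitosis (-0.42 ± 0.062, edgeR adjusted P value 1.44e-06), to Anapc11 (0.22 ± 0.073, adjusted P value 0.0149). Of 12 cohesin genes, 3 were lower and 1 was higher (median -0.064), from Esco2, a cohesin acetyltransferase (-0.80 ± 0.14), to Stag1, a cohesin subunit (0.37 ± 0.069). Of 14 genes of the MuvB, DREAM and NF-Y factors, 3 were lower (Lin9, Rbl1 and Lin52) and none was higher (median -0.045), from Lin9 (-0.55 ± 0.090) to Nfya (0.26 ± 0.053), whose change passed the adjusted P value but was under the fold threshold for a call. At day 1 the numbers lower were 1, 1 and 3, against 7.80% of all genes. No test compared these groups with the mitosis genes.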
